A study of Mus musculus with 10 samples.

Results

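The TNF receptor superfamily is described here through 10 of its receptors: Fas, Tnfrsf1a, Tnfrsf10b, Ltbr, Tnfrsf1b, Tnfrsf4, Tnfrsf9, Tnfrsf18, Cd27 and Tnfrsf14. They were taken by gene symbol from the 45706 mouse genes of the deposited expression table, and all 10 were found. RNA sequencing had been carried out on splenic T cells and on splenic cDC2s, the type 2 subset of conventional dendritic cells, which present antigen and express the CD47 receptor SIRP alpha. The controls were Cd47f/f mice with floxed Cd47 alleles. The other genotype, Cd47ΔT, lacks Cd47 in T cells according to its name. There were 2 T cell libraries and 3 cDC2 libraries per genotype, 10 in all. The sources used here do not give the driver of the deletion, the exons removed or the ages of the mice. T cell RNA was purified on RNeasy mini columns and converted to TruSeq stranded mRNA libraries, whereas cDC2 RNA came from an RNeasy micro kit and went into SMART-seq stranded libraries. A level that differs between cell types may thus belong to the cells or to the kit, which cannot be told apart, whereas the genotypes were compared within a kit.

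Receptors of this family bind trimeric ligands and differ in their cytoplasmic tails. Fas, TNFR1 (Tnfrsf1a) and the TRAIL receptor DR5 (Tnfrsf10b) carry a death domain and can recruit adaptors that lead to caspase-8, to RIPK1 or to survival signals. TNFR2 (Tnfrsf1b), the lymphotoxin beta receptor (Ltbr), OX40 (Tnfrsf4), 4-1BB (Tnfrsf9), GITR (Tnfrsf18), CD27 and HVEM (Tnfrsf14) bind TRAF adaptors instead and feed the canonical and alternative NF-kB pathways. OX40, 4-1BB, GITR and CD27 are costimulatory receptors of T cells. OX40, GITR and TNFR2 are known for high expression on regulatory T cells. The lymphotoxin beta receptor is known mainly from stromal and myeloid cells. By its title, the study concerns peripheral T cell survival and necroptosis, a form of cell death that death receptors can start.

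Tnfrsf1b (chr4:145213463-145246870, minus strand), Tnfrsf9 (chr4:150914562-150946102, plus strand), Tnfrsf14 (chr4:154921933-154928563, minus strand), Tnfrsf4 (chr4:156013843-156016612, plus strand) and Tnfrsf18 (chr4:156026164-156028895, plus strand) lie on chromosome 4 in GRCm38. Tnfrsf4 and Tnfrsf18 are direct neighbours on the same strand, 9.552 kb apart with 0 protein-coding genes between them. Cd27 (chr6:125232622-125237010, minus strand), Ltbr (chr6:125306571-125313885, minus strand) and Tnfrsf1a (chr6:125349362-125362484, plus strand) form a cluster on chromosome 6, with 69.561 kb from Cd27 to Ltbr and 35.477 kb from Ltbr to Tnfrsf1a. Tnfrsf10b (chr14:69767472-69784411, plus strand) and Fas (chr19:34290666-34327772, plus strand) stand alone.

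RefSeq promoter windows of GRCm38.p6, from 250 bases before to 50 after a start site, were found for 9 of the 10 receptors, as 10 windows. They were searched on both strands for the NF-kB consensus motif and for the AP-1 motif TGANTCA. The Tnfrsf9 window with motif matches and the windows of Tnfrsf18 and Tnfrsf4 are shown, for 3 of the 5 receptors called higher in T cells. That of Fas is shown because it holds a motif while its level did not pass the test. Capitals mark motif matches.
Tnfrsf9 (chr4:150927749-150928048, plus strand): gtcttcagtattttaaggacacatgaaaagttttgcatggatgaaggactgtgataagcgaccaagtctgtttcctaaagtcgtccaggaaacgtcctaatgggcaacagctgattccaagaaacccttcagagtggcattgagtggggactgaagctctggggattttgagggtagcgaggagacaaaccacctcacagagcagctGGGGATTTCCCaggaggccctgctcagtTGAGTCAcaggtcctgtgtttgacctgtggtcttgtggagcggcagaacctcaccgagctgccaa
Tnfrsf18 (chr4:156026072-156026371, plus strand): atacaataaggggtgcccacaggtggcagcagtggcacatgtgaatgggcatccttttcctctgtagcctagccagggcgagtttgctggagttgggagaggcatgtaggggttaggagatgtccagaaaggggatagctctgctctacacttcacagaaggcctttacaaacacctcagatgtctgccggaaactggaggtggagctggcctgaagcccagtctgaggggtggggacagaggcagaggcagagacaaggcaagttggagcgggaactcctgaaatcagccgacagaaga
Tnfrsf4 (chr4:156013445-156013744, plus strand): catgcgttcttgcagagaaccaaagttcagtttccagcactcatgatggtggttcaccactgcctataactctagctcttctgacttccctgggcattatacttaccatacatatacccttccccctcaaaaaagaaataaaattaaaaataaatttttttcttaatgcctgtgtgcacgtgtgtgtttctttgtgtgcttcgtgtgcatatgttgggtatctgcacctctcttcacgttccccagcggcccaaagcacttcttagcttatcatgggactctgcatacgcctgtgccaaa
Fas (chr19:34290409-34290708, plus strand): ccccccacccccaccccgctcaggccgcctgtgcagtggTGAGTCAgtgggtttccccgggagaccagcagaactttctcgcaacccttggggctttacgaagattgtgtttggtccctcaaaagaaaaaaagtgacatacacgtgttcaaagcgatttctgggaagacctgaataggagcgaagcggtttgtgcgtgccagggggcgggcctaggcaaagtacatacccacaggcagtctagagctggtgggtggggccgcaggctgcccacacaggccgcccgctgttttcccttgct
In the Tnfrsf9 window shown, the first capital run holds 2 overlapping NF-kB matches, at -43 and -42 from the start site, and the second run is an AP-1 match at -15. A further Tnfrsf9 window (chr4:150919905-150920204, plus strand) held no match of either motif. Both Tnfrsf9 windows lie inside the annotated gene, after its start. The Fas window has an AP-1 match at -211. The NF-kB motif was present in 1 of the 10 windows, against 8.46% of 32851 mouse promoter windows of the same length, and the AP-1 motif in 2 of 10, against 7.81%. Neither motif was matched in the windows of Tnfrsf18 and Tnfrsf4. The windows of Tnfrsf1b and Ltbr, the other receptors called higher in T cells, held no match either and are not shown. These are matches of letters only. The Tnfrsf4 window ends before the annotated start of the gene that carried the TPM value.

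Values are TPM, transcript abundance per length scaled to the same total in each library, which keep no record of sequencing depth. Levels may therefore be compared between genes, but the depth behind each value is unknown. Cd47 itself fell in T cells, from 137.71 and 232.56 TPM in Cd47f/f to 40.38 and 51.68 TPM in Cd47ΔT (log2 fold change -1.95, adjusted p = 0.0112 by limma), and ranged from 135.44 to 161.82 TPM over the 6 cDC2 libraries. Pan-T markers summed to 4606 to 4955 TPM over the T cell libraries, and cDC2 markers to 1152 to 1516 TPM over the cDC2 libraries. In the cDC2 libraries Foxp3 and Cd3g were listed at 0, while the pan-T list summed to 15.9 to 23.2 TPM, with Cd5 at 11.68 to 21.78 TPM. Lists of other cells were also present there, with monocyte and macrophage markers at 290 to 454 TPM. B cell markers summed to 25.6 to 32.1 TPM and erythroid markers to 25.3 to 185 TPM. Among the cDC2 libraries, Cd47f/f library 3 stood apart, with the fewest genes above 0 TPM (14172). Whether the libraries of a group stem from different mice is not stated in the labels, so the p-values reflect no more than the spread among the libraries, which may be technical. Fold changes below are on the log2(TPM + 1) scale, which understates the change of low genes, with their SE, and a change was called at an adjusted p under 0.05 over all genes tested.

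Control T cells and control cDC2s shared most of these receptors, at levels that mostly differed. In control T cells 9 of the 10 reached 1 TPM in every library, and in control cDC2s 7 did. In Cd47f/f T cells Cd27 was the most abundant of the 10, at 299.86 and 304.98 TPM, followed by Tnfrsf18 at 64.67 and 59.48 TPM. Tnfrsf14 (30.72 and 52.58 TPM), Tnfrsf1a (33.95 and 41.73 TPM) and Tnfrsf1b (30.29 and 36.90 TPM) came next and overlapped, each with its neighbour in that order. Fas (23.89 and 24.79 TPM) and Tnfrsf4 (24.89 and 20.43 TPM) overlapped as well, above Tnfrsf9 (18.15 and 18.43 TPM). Tnfrsf10b, at 2.75 and 3.59 TPM, and Ltbr, at 0.45 and 0.29 TPM, were lowest.

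In Cd47f/f cDC2s the order was led by both TNF receptors, Tnfrsf1b at 62.28, 63.51 and 73.45 TPM and Tnfrsf1a at 60.87, 53.64 and 65.29 TPM, whose ranges overlapped. Tnfrsf14 followed at 60.37, 38.98 and 33.96 TPM. Ltbr, at 22.33, 24.10 and 28.19 TPM, overlapped with Tnfrsf18, at 28.21, 19.03 and 23.91 TPM. Tnfrsf4 (5.06, 17.15 and 11.62 TPM), Tnfrsf9 (2.13, 4.82 and 4.17 TPM), Fas (4.79, 3.42 and 0.16 TPM) and Tnfrsf10b (0.42, 0.76 and 1 TPM) were lower. Cd27 was lowest, at 0.09, 0 and 0.30 TPM.

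Between the control cell types, 5 of the 10 receptors were higher in T cells, where 30.9% of the 13265 genes tested were called higher, and 3 were lower, where 27.6% were called lower. Most of the family thus differed, as did most genes. Cd27 and Tnfrsf10b passed the filter on low values only through the T cell libraries and Ltbr only through the cDC2 libraries, the group in which each was higher. Cd27 had the largest difference (log2 8.08 ± 0.21, adjusted p = 1.45e-06), a value that ran from 5.91 to 10.59 with the pseudocount because cDC2 libraries were near 0. Fas was higher in T cells by log2 3.03 ± 0.67 (adjusted p = 0.00879), and by 2.32 without Cd47f/f cDC2 library 3. Tnfrsf9 (2.08 ± 0.31), Tnfrsf18 (1.37 ± 0.20) and Tnfrsf10b (1.28 ± 0.25) were also higher. The Tnfrsf10b call ended without either T cell library (adjusted p = 0.0806 and 0.139, over a range from 0.000297 across alternatives). Ltbr was lower in T cells by log2 -4.24 ± 0.22, Tnfrsf1b by -0.97 ± 0.16 and Tnfrsf1a by -0.65 ± 0.17 (adjusted p = 0.0156, and 0.0775 without Cd47f/f T cell library 1). Tnfrsf4 (1.08 ± 0.46, adjusted p = 0.0836) and Tnfrsf14 (-0.10, 95% interval -0.88 to 0.68) did not pass. These differences hold for cell type and library kit together.

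**Figure D1:**
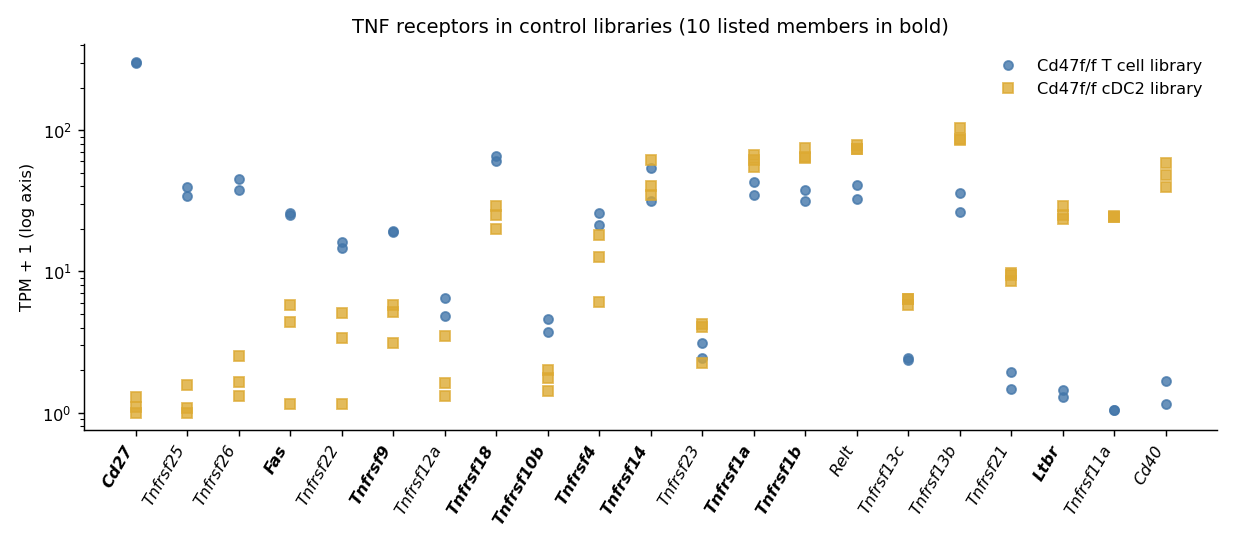
TNF receptors in control (Cd47f/f) libraries, as TPM + 1 on a log axis, with one point per library (circles, 2 T cell libraries; squares, 3 cDC2 libraries) and genes ordered from T cell-high to cDC2-high. The 10 listed receptors are in bold; Cd27 stands at the T cell end and Ltbr near the cDC2 end, while Tnfrsf14 overlaps between the cell types.

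In T cells, deletion of Cd47 went with higher levels of the costimulatory receptors Tnfrsf4, Tnfrsf9 and Tnfrsf18, of Tnfrsf1b, and of Ltbr at a low level. These 5 of the 10 receptors were called higher and 0 lower. Over the 12453 genes tested, 8.50% were called higher and 0.875% lower. The median log2 fold change of the 10 was 0.70, beside 0.10 over all genes tested. The 3 death receptors, Cd27 and Tnfrsf14 did not pass. In bulk RNA, more cells of a type and more RNA per cell cannot be told apart.

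Tnfrsf4, the OX40 receptor that sustains activated and memory T cells, measured 24.89 and 20.43 TPM in Cd47f/f T cells and 136.53 and 92.31 TPM in Cd47ΔT T cells. Both deletion libraries were above both controls, with a log2 fold change of 2.27 ± 0.22 (adjusted p = 0.00490), and library 1 was the higher of the pair.

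Tnfrsf9, encoding the activation-induced receptor 4-1BB, went from 18.15 and 18.43 TPM to 66.30 and 58.55 TPM. The control libraries were almost equal, and the log2 fold change was 1.71 ± 0.15 (adjusted p = 0.00379). Tnfrsf18, encoding GITR, started from a higher level, 64.67 and 59.48 TPM, and reached 152.24 and 120.38 TPM. The groups did not overlap and the log2 fold change was 1.11 ± 0.15 (adjusted p = 0.0115). Tnfrsf9 overlaps Camta1 on the opposite strand and Tnfrsf18 overlaps the antisense gene Gm16008, and it is not stated whether reads were counted by strand, which leaves these values uncertain. Camta1 measured 8.69 to 11.49 TPM and Gm16008 0.57 to 2.51 TPM over the T cell libraries, both below the receptors.

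Tnfrsf1b, encoding TNFR2, the TNF receptor without a death domain, measured 30.29 and 36.90 TPM in controls and 96.96 and 85.16 TPM after deletion. Both deletion libraries lay above both controls (log2 fold change 1.42 ± 0.15, adjusted p = 0.00714). The partner TNF receptor Tnfrsf1a measured 33.95 and 41.73 TPM against 36.87 and 37.56 TPM. Its deletion libraries lay between the controls (log2 fold change -0.0162, 95% interval -0.40 to 0.36). Mean levels of Tnfrsf1b and Tnfrsf1a were 33.6 and 37.8 TPM in control T cells and 91.1 and 37.2 TPM in Cd47ΔT T cells.

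Ltbr, the receptor for lymphotoxin and LIGHT, measured 0.45 and 0.29 TPM in controls and 1.89 and 2.68 TPM after deletion. The log2 fold change was 1.25 ± 0.24 (adjusted p = 0.0297). Ltbr reached 1 TPM only in the Cd47ΔT libraries and so entered the test through the group in which it was higher. Its size depended on the pseudocount, from 0.44 at 5 TPM to 2.34 at 0.1 TPM. Its call ended under quantile scaling (adjusted p = 0.0888), without Cd47f/f library 1 (0.0734) and without Cd47f/f library 2 (0.0620), over a range from 7.36e-05 to 0.0893 across the alternatives that tested it.

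The death receptors among those listed were not called in T cells. Fas, the receptor of Fas ligand, measured 23.89 and 24.79 TPM in controls and 22.57 and 22.83 TPM after deletion. Both deletion libraries were just below both controls, with a log2 fold change of -0.0963 and a 95% interval from -0.46 to 0.27 (adjusted p = 0.825). Tnfrsf10b, the receptor of TRAIL, measured 2.75 and 3.59 TPM against 3.74 and 4.34 TPM (log2 fold change 0.28, 95% interval -0.28 to 0.83). Its groups did not overlap but lay close.

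Cd27, a costimulatory receptor that naive T cells already carry, measured 299.86 and 304.98 TPM against 302.15 and 314.47 TPM. The groups overlapped, and the 95% interval of its log2 fold change ran from -0.20 to 0.26. Its sign turned in 4 alternatives. Cd27 overlaps Vamp1 on the opposite strand, which measured 22.83 to 31.01 TPM over the T cell libraries. Tnfrsf14, whose product HVEM binds LIGHT, BTLA and CD160, measured 30.72 and 52.58 TPM against 44.42 and 54.50 TPM. Control library 1 lay below the other 3, and the 95% interval ran from -0.35 to 0.92. Across the 10 receptors in T cells, 6 were higher without overlap between genotypes, 1 (Fas) was lower without overlap and 3 overlapped, where 48.9% of all genes tested did not overlap in either direction. Among the 6 was Ltbr, which entered the test only through the Cd47ΔT libraries.

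**Figure D2:**
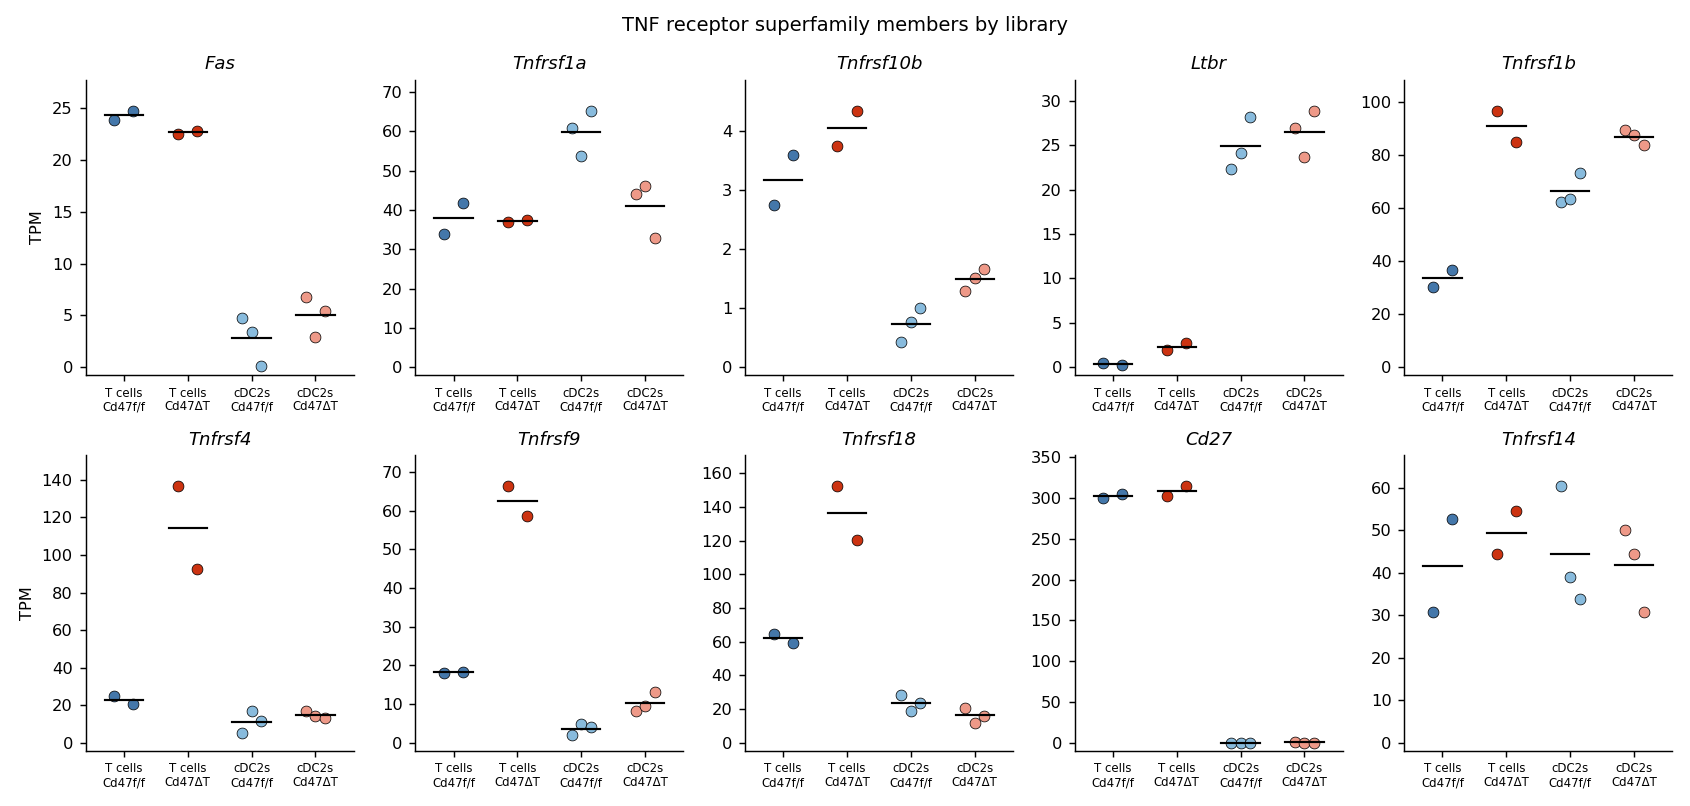
TPM of each receptor in every library (points) with the group mean (bar), by cell type and genotype, 1 panel per gene with its own axis from 0. Tnfrsf4, Tnfrsf9, Tnfrsf18 and Tnfrsf1b of Cd47ΔT T cells stand above the control T cells, while Fas, Tnfrsf1a and Cd27 do not.

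Markers of other cell types and of regulatory T cells moved with these receptors in the same libraries. Summed markers of regulatory T cells went from 68.2 to 84.6 TPM in controls to 151 to 182 TPM in Cd47ΔT, with 4 of 7 called higher: Foxp3, Ctla4 (log2 fold change 1.42), Ikzf2 (1.88) and Ikzf4 (0.95). The interleukin-2 receptor chain Il2ra (0.90, adjusted p = 0.0582), Itgae (0.38, adjusted p = 0.402) and Gpr83, on the lower side (-0.56, adjusted p = 0.309), were not called. Foxp3, the defining factor of regulatory T cells, measured 7.66 and 8.90 TPM in controls and 38.37 and 28.01 TPM after deletion (log2 fold change 1.87, adjusted p = 0.00773). Per TPM of Foxp3, Tnfrsf4 measured 3.25 and 2.30 in controls and 3.56 and 3.30 after deletion, and Tnfrsf9 measured 2.37 and 2.07 against 1.73 and 2.09. The same ratio was 3.95 and 4.15 against 2.53 and 3.04 for Tnfrsf1b, and 8.44 and 6.68 against 3.97 and 4.30 for Tnfrsf18. Relative to Foxp3, both deletion libraries lay below both controls for Tnfrsf18 and Tnfrsf1b and above them for Tnfrsf4, and the groups overlapped for Tnfrsf9. Cycling markers went from 71.0 to 101 TPM in controls to 354 to 386 TPM, with 7 of 7 called higher. Both marker counts stand beside 8.50% of the 12453 genes tested that were called higher.

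Markers of myeloid cells, B cells and NK cells moved too. The cDC2 list went from 9.92 to 13.1 TPM to 45.0 to 68.0 TPM in T cell libraries (5 of 6 tested called higher, with Clec4a4 at 0 in controls), and the monocyte and macrophage list from 625 to 798 TPM to 1984 to 2224 TPM (7 of 7 tested). Ly6c2, which memory-type CD8 T cells also express, made up most of the monocyte sum, at 595.42 and 738.17 TPM in controls and 1706.61 and 1738.16 TPM after deletion. Without Ly6c2 that sum was 29.4 to 59.8 TPM in controls and 277 to 486 TPM in Cd47ΔT, with Csf1r, the receptor of macrophage growth factor, at 2.34 and 4.23 against 20.63 and 34.93 TPM. The B cell list went from 14.8 to 16.2 TPM to 52.5 to 122 TPM (5 of 5 tested) and the NK list from 34.0 to 51.2 TPM to 111 to 153 TPM (5 of 6). Over all genes tested in T cells, 8.50% were called higher. Per TPM of Flt3, a dendritic cell receptor, Ltbr measured 0.957 and 0.690 in control T cell libraries and 0.836 and 0.678 in Cd47ΔT libraries. The same ratio was 0.506 and 0.139 against 0.345 and 0.270 per TPM of Itgax, encoding CD11c, and 0.0232 and 0.00618 against 0.00976 and 0.00766 per TPM of the lysozyme gene Lyz2. The genotypes overlapped in all 3 ratios. In controls, however, Ltbr (0.45 and 0.29 TPM) and Flt3 (0.47 and 0.42 TPM) were near the floor, so the overlap says little. Both reached 1 TPM only in the Cd47ΔT libraries, the group in which they were higher. Of the 7 pan-T markers, limma called 0, with 1 at an unadjusted p under 0.05, beside 2693 of 12453 genes tested. The pan-T markers summed to 4732 to 4765 TPM in controls and 4606 to 4955 TPM after deletion. Subset genes, named here after their values were seen, moved in both directions. Cd4, the coreceptor of helper and regulatory T cells, measured 170.13 and 189.73 TPM against 108.01 and 60.17 TPM (log2 fold change -1.15 ± 0.26, adjusted p = 0.0481, and up to 0.169 across alternatives), and its call ended without any 1 of the libraries except Cd47ΔT library 1. Cd8a, a chain of the coreceptor of cytotoxic T cells, measured 331.47 and 380.38 TPM against 499.00 and 513.57 TPM (0.51, adjusted p = 0.0367), and its call ended without either Cd47ΔT library (adjusted p = 0.233 and 0.315, over a range up to 0.489). Ccr7, a homing receptor of naive T cells, measured 434.70 and 398.20 TPM against 285.97 and 285.26 TPM (-0.54, adjusted p = 0.0257). The part of these markers and subset genes in the receptor changes was not tested.

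**Figure D3:**
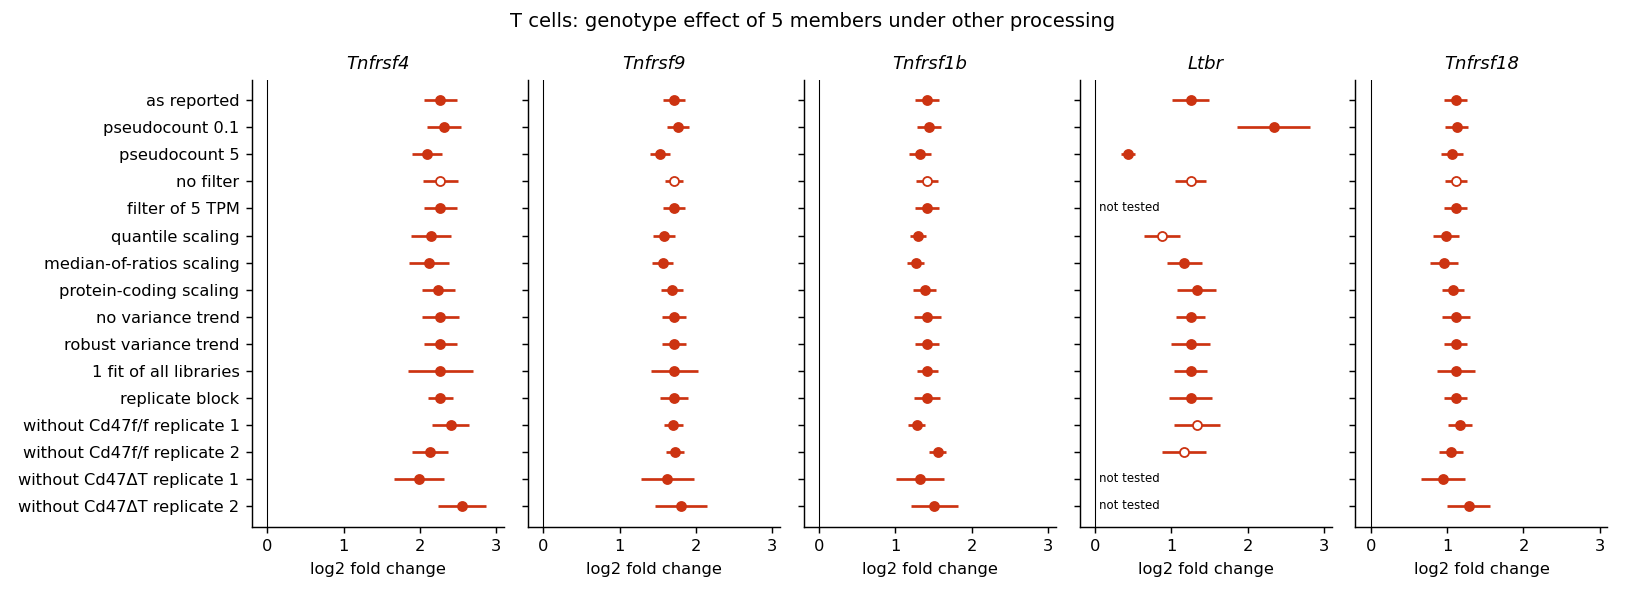
Log2 fold change (Cd47ΔT over Cd47f/f) ± SE of the 5 receptors called in T cells, as reported and under each alternative; filled points passed an adjusted p under 0.05 and open points did not. Tnfrsf4, Tnfrsf9, Tnfrsf1b and Tnfrsf18 are open only with no filter, whereas Ltbr is open in 4 alternatives and was not tested in 3.

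The size of the T cell effects changed little with the processing for 4 of the 5 receptors. Tnfrsf4 ran from 1.99 to 2.55, Tnfrsf9 from 1.53 to 1.80, Tnfrsf1b from 1.26 to 1.55 and Tnfrsf18 from 0.95 to 1.28 on the log2 scale. With no filter on low values, 0 of the 10 receptors were called (adjusted p = 0.0608 to 0.0893 for the 5), and 15 of all genes were called in place of 1167.

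In cDC2s, whose Cd47 had a log2 fold change of -0.0022, limma called 0 of the 9 receptors tested, where 0.630% of the 12058 genes tested were called in either direction. At an unadjusted p under 0.05 there were 3, beside 1618 of the 12058 genes tested. These were Tnfrsf9 and Tnfrsf1b on the higher side and Tnfrsf1a on the lower. Cd27 did not reach the filter, at 0.09, 0 and 0.30 TPM in Cd47f/f and 1.38, 0.15 and 0 TPM in Cd47ΔT cDC2s.

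Tnfrsf9 measured 2.13, 4.82 and 4.17 TPM in controls and 8.23, 9.62 and 13.27 TPM in Cd47ΔT. The groups did not overlap, yet the log2 fold change of 1.30 ± 0.30 had an adjusted p of 0.121. It passed in a single alternative, 1 fit of all libraries (adjusted p = 0.0354, over a range up to 0.293). Camta1, on the opposite strand, measured 4.69, 4.86 and 3.17 TPM in control and 3.61, 5.04 and 3.37 TPM in Cd47ΔT cDC2s. These levels are near those of Tnfrsf9 in controls. If reads were not counted by strand, the Tnfrsf9 values of cDC2s are uncertain, and so is its difference between control cell types. Tnfrsf1b measured 62.28, 63.51 and 73.45 TPM against 89.60, 87.76 and 83.79 TPM, again without overlap (log2 fold change 0.39 ± 0.10, adjusted p = 0.163). Tnfrsf1a lay on the other side, at 60.87, 53.64 and 65.29 TPM against 44.15, 46.06 and 32.86 TPM (log2 fold change -0.55 ± 0.16, adjusted p = 0.187).

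The other receptors of cDC2s varied within or near the spread between libraries. Tnfrsf10b measured 0.42, 0.76 and 1 TPM against 1.29, 1.51 and 1.66 TPM, without overlap at low levels (log2 fold change 0.54, 95% interval -0.16 to 1.24). Every Cd47ΔT library but only Cd47f/f library 3 reached 1 TPM, so Tnfrsf10b entered the test through the group where it was higher. Fas measured 4.79, 3.42 and 0.16 TPM against 6.76, 2.93 and 5.42 TPM. Its log2 fold change of 0.91 (95% interval -0.48 to 2.30) became 0.20 without Cd47f/f library 3. Tnfrsf4 measured 5.06, 17.15 and 11.62 TPM against 17.19, 14.12 and 13.43 TPM. Its log2 fold change of 0.51 (95% interval -0.36 to 1.37) became 0.0651 without Cd47f/f library 1, the lowest of the 6. Tnfrsf18 measured 28.21, 19.03 and 23.91 TPM against 20.64, 12.00 and 16.22 TPM (log2 fold change -0.53, 95% interval -1.06 to 0.00100), with overlapping groups.

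Ltbr overlapped between genotypes in cDC2s, at 22.33, 24.10 and 28.19 TPM against 26.89, 23.73 and 28.91 TPM (log2 fold change 0.0904, 95% interval -0.25 to 0.43). Tnfrsf14 measured 60.37, 38.98 and 33.96 TPM against 50.11, 44.35 and 30.81 TPM (95% interval -0.65 to 0.51). In all, 3 of the 9 receptors were higher and 1 was lower without overlap, where 19.9% of all genes tested did not overlap. Among the 3 was Tnfrsf10b, which entered the test through the group in which it was higher. Small noncoding RNA took 16.1% to 21.3% of TPM in Cd47f/f cDC2 libraries and 21.8% to 25.2% in Cd47ΔT. Rescaled to protein-coding genes, 0 receptors were again called, and Tnfrsf9 had a log2 fold change of 1.42 (adjusted p = 0.118, over a range from 0.0354 to 0.293).

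**Figure D4:**
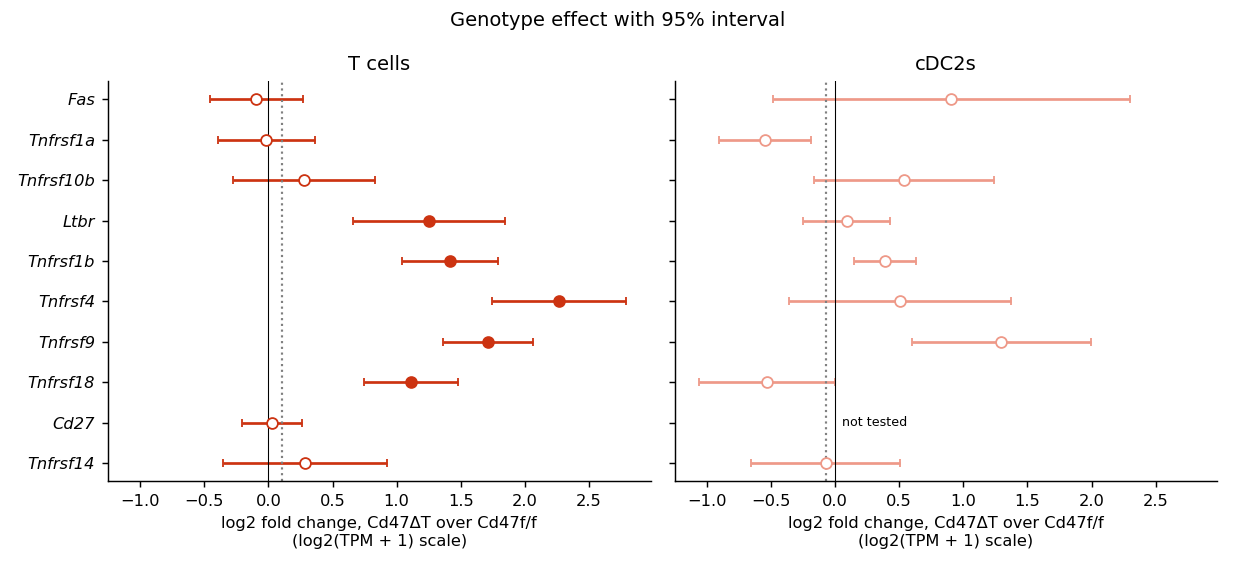
Log2 fold change of each receptor, Cd47ΔT over Cd47f/f, with its 95% interval, in T cells (left) and cDC2s (right); filled points passed an adjusted p under 0.05 and the dotted line is the median of all genes tested. In T cells 5 receptors are filled, and in cDC2s none of the 9 tested is, with Cd27 not tested.

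The difference between the genotype effects of T cells and cDC2s was tested as an interaction over 10650 genes. Of the 9 receptors tested, 3 had a higher effect in T cells, where 5.40% of genes were called higher. Tnfrsf18, with opposite signs in the cell types, differed by log2 1.64 ± 0.32 (adjusted p = 0.00962). Tnfrsf1b, higher on both sides, differed by 1.03 ± 0.20 (adjusted p = 0.00841). Ltbr, which measured 1.89 and 2.68 TPM in Cd47ΔT T cells and 22.33 to 28.91 TPM over the cDC2 libraries, differed by 1.16 ± 0.30 (adjusted p = 0.0421). It passed the T cell filter only through the Cd47ΔT libraries, the group in which it was higher. The Ltbr call held in only 4 of the 17 alternatives that tested it, with adjusted p up to 0.480. Without Cd47ΔT T cell library 1, 0 receptors were called, with adjusted p of 0.0780 for Tnfrsf18 and 0.0845 for Tnfrsf1b, the highest in their alternatives.

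For Tnfrsf4 the difference was 1.76 ± 0.51 (adjusted p = 0.0769), and it passed without Cd47f/f cDC2 library 1 (0.00454) and with a pseudocount of 5 (0.0266), over a range up to 0.368. Tnfrsf9 differed by 0.42 with a 95% interval from -0.43 to 1.27. Its effects in the cell types were therefore not separated here. The remaining intervals were -0.00722 to 1.07 for Tnfrsf1a, -2.68 to 0.68 for Fas, -1.12 to 0.60 for Tnfrsf10b and -0.53 to 1.25 for Tnfrsf14.

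The ligands and binding partners of these receptors were read from a list of 12 genes, of which 9 were tested in T cells and 8 in cDC2s. In T cells 2 of the 9 were called higher and 0 lower, beside 8.50% and 0.875% of all genes tested. Their median log2 fold change was 0.34, beside 0.10 over all genes tested. Cd160, a partner of HVEM on cytotoxic lymphocytes, measured 19.92 and 20.75 TPM in controls and 48.58 and 50.10 TPM after deletion (log2 fold change 1.24 ± 0.14, adjusted p = 0.00773). Tnfsf14, encoding LIGHT, the ligand of HVEM and the lymphotoxin beta receptor, measured 8.06 and 10.84 TPM against 19.26 and 18.13 TPM (0.93 ± 0.20, adjusted p = 0.0420). Both groups of libraries were apart for each gene. The Tnfsf14 call ended without Cd47f/f library 1 (adjusted p = 0.0548) and without Cd47ΔT library 1 (0.274) or 2 (0.179), over a range from 0.000398 to 0.274 across alternatives. The NK marker list named above moved in the same libraries, and its part in Cd160 was not tested.

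In cDC2s limma called 0 of the 8 ligands and partners, with 4 at an unadjusted p under 0.05, beside 1618 of 12058 genes tested. Tnfsf14 had the smallest p, at 10.88, 5.42 and 7.56 TPM in controls and 0.51, 1.89 and 1.39 TPM in Cd47ΔT (log2 fold change -1.99 ± 0.35, adjusted p = 0.0619). Every Cd47ΔT library lay below every control. The interaction was called for Tnfsf14, with an effect 2.92 ± 0.46 higher in T cells than in cDC2s on the log2 scale (adjusted p = 0.00315). Ltb, encoding lymphotoxin beta, measured 205.68, 189.93 and 188.36 TPM against 248.49, 236.85 and 270.44 TPM in cDC2s (0.37 ± 0.09, adjusted p = 0.134) and 705.78 and 712.91 TPM against 600.16 and 578.58 TPM in T cells (-0.27 ± 0.09, adjusted p = 0.139). Neither cell type passed for Ltb alone, while its interaction did (-0.64 ± 0.14, adjusted p = 0.0189), though not without Cd47ΔT T cell library 1 or 2 (0.105 and 0.154, the latter the highest across alternatives). Of the ligands chosen after their values were seen, Tnfsf18 and Cd70, which bind GITR and CD27, were at 0.50 TPM or less in every T cell library and listed at 0 in every cDC2 library. Tnfsf4, the OX40 ligand, did not exceed 1.40 TPM.

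**Figure D5:**
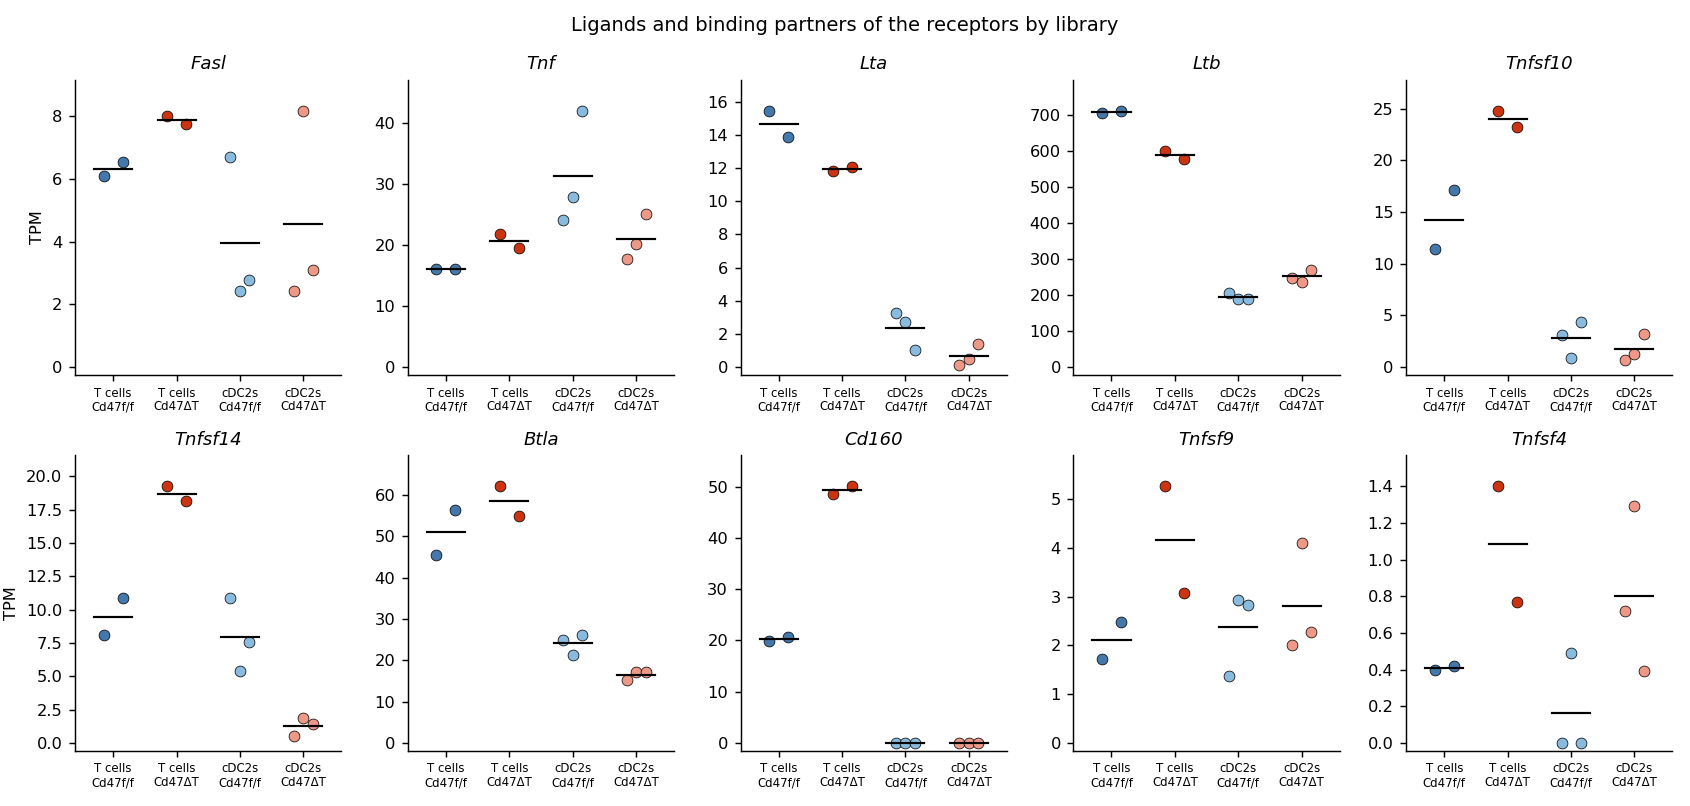
TPM of 10 ligands and binding partners in every library (points) with the group mean (bar), by cell type and genotype, 1 panel per gene. Tnfsf14 is above its controls in Cd47ΔT T cells and below them in Cd47ΔT cDC2s, and Cd160 is seen in T cells, at 48.58 and 50.10 TPM after deletion.

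Of 18 further receptors of the family, 12 were tested in T cells and 5 were called higher, 0 lower (median log2 fold change 0.46), beside 8.50% and 0.875% of all genes tested. Tnfrsf13c, the BAFF receptor of B cells, measured 1.45 and 1.37 TPM against 5.39 and 7.98 TPM (1.65 ± 0.25, adjusted p = 0.0151). Tnfrsf8, encoding CD30, measured 0.55 and 0.54 TPM against 3.48 and 3.36 TPM (1.52 ± 0.22, adjusted p = 0.0129). Cd40, a receptor of antigen-presenting cells, measured 0.68 and 0.15 TPM against 2.08 and 3.52 TPM (1.42 ± 0.31, adjusted p = 0.0407). Tnfrsf17, encoding the plasma cell receptor BCMA, measured 0.64 and 0.41 TPM against 2.01 and 3.75 TPM (1.31 ± 0.29, adjusted p = 0.0437). Tnfrsf21, encoding DR6 and named after its value was seen, measured 0.46 and 0.95 TPM against 2.37 and 4.01 TPM (1.28 ± 0.30, adjusted p = 0.0483). All but Tnfrsf13c reached 1 TPM only in Cd47ΔT libraries, so they entered the test through the group in which they were higher. The calls of Cd40, Tnfrsf17 and Tnfrsf21 each ended without either Cd47f/f library (adjusted p = 0.0511 to 0.124), and reached 0.129, 0.131 and 0.144 across alternatives. In 4 of the 5, Cd47ΔT library 2 was the higher, as it was for Ltbr. In cDC2s limma called 0 of 7 tested receptors, with 2 at an unadjusted p under 0.05, beside 1618 of 12058 genes tested. The smallest p was that of Tnfrsf13b (log2 fold change -0.51, adjusted p = 0.318), followed by Tnfrsf11a (-0.31, adjusted p = 0.358).

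Of 14 genes of death domain signalling, all tested, 1 was called higher and 0 lower in T cells, beside 8.50% and 0.875% of all genes tested, with a median of 0.10, equal to that of all genes. In cDC2s limma called 0 of the 14, with 7 at an unadjusted p under 0.05, beside 1618 of the 12058 genes tested, and with the smallest p for Sharpin, a subunit of the linear ubiquitin ligase (-0.44, adjusted p = 0.199), and Bid, a BH3-only protein cleaved by caspase-8 (-0.63, adjusted p = 0.205).

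Of 15 genes of TRAF and NF-kB signalling, limma called 0 in T cells. At an unadjusted p under 0.05 there were 3, beside 2693 of 12453 genes tested. Traf1, an adaptor, had 102.62 to 106.75 TPM in controls and 128.44 to 143.51 TPM after deletion (0.37 ± 0.12, adjusted p = 0.119). Map3k14, encoding the NF-kB-inducing kinase, had 26.89 to 32.61 TPM and 18.64 to 22.21 TPM (-0.52 ± 0.18, adjusted p = 0.150). In cDC2s 1 of the 15 was called, where 0.630% of all genes were, namely Relb, the subunit of the alternative NF-kB pathway. It measured 266.54, 286.91 and 261.23 TPM in controls and 399.73, 395.12 and 449.72 TPM in Cd47ΔT, without overlap (0.61 ± 0.09, adjusted p = 0.0364). The Relb call ended without any 1 of the 6 libraries (adjusted p = 0.0819 to 0.138), though the log2 fold change stayed between 0.55 and 0.65, and it passed in 8 of 17 alternatives (adjusted p = 0.0141 to 0.152). Markers of migratory mature dendritic cells summed to 169 to 213 TPM in the control cDC2 libraries and 256 to 315 TPM in Cd47ΔT. Of these 7 markers limma called 0, with 3 at an unadjusted p under 0.05, beside 1618 of 12058 genes tested. Their part in Relb was not tested. The interaction for Relb did not pass (adjusted p = 0.181).

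Summed over all 28 receptors of the family, transcripts came to 679 to 747 TPM in control T cells and 974 to 1048 TPM in Cd47ΔT T cells. The share of Cd27 in that sum was 40.8% to 44.1% in controls and 28.8% to 32.3% after deletion, at a near-equal Cd27 level, while the share of Tnfrsf4 went from 2.73% to 3.66% to 9.48% to 13.02%. In T cells of Cd47ΔT mice the order below Cd27 was Tnfrsf18, Tnfrsf4, Tnfrsf1b, Tnfrsf9 and Tnfrsf14, where the first 3 overlapped with their neighbours. The sum in cDC2s was 480 to 511 TPM in controls and 443 to 487 TPM in Cd47ΔT. There Tnfrsf1b took 12.6% to 14.4% of the sum in controls and 17.2% to 19.8% in Cd47ΔT, and Tnfrsf1a 11.2% to 12.8% and 6.75% to 10.4%.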

How the data were processed

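Gene expression was measured by RNA sequencing in 10 libraries, grouped by the cell type and genotype of the labels. Values are TPM that the authors deposited, 1 per gene and library for 45706 genes. Per the submitters' processing notes, STAR, RSEM, DESeq2 (versions not given) and GRCm38 were used. TPM keep no depth, so precision from depth is unknown. Symbols and positions came from GENCODE M21 (98.8% of identifiers matched), and promoter sequences from RefSeq (GRCm38.p6).

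Each comparison tested the genes that reached 1 TPM in 2 of 4 T cell, 3 of 6 cDC2 or 2 of 5 control libraries. The test was that of limma 3.58.1 under R 4.3.3, two-sided, on log2(TPM + 1), with a trended prior variance. Benjamini-Hochberg adjustment ran over all genes tested, with a threshold of 0.05. Genes passing both genotype filters entered the interaction test. The steps were tested on simulated data. Figures were made with Python 3.11.15 and matplotlib 3.10.9.

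The receptors, gene lists and marker lists were chosen with earlier results of these data known. All 10 receptors were named. From each other list, up to 4 called genes per cell type were named by smallest p, or up to 2 where none was called. A gene that this rule names is not reported here. The promoter windows and the summed receptor levels were chosen after the values were seen. Alternatives covered the pseudocount, filter, scaling, variance model, samples in the fit, replicate block and leaving out each library, and those for genes other than the 10 receptors were added after the data were seen. A fit that left 1 library in a T cell group assumes that it varies like the other group.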

Additional observations from a re-analysis of the deposited data

Results flagged for a closer look

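The genotype effect differed between T cells and cDC2s for 3 receptors by the interaction test. On the log2 scale the T cell effect exceeded the cDC2 effect by 1.64 for Tnfrsf18, by 1.03 for Tnfrsf1b and by 1.16 for Ltbr. Ltbr passed the T cell filter only through the Cd47ΔT libraries, and its call held in only 4 of the 17 alternatives that tested it. T cells and cDC2s differed in library kit as well, so that a difference between the cell types and a different response of the kits cannot be told apart. No group had enough libraries for a check for single outlying libraries.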

How the results depend on the processing

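Scaling moved the median log2 fold change of all genes in T cells from 0.10 to -0.0789 (quantile) and -0.0408 (median of ratios), and calls from 1058 higher and 109 lower to 672 and 327, and to 946 and 264. In cDC2s, 30 higher and 46 lower became 37 and 37, 40 and 35, and, rescaled to protein-coding genes, 35 and 31. That rescaling turned 4098 higher and 3665 lower in control T cells against control cDC2s to 3260 and 4367. For the interaction, quantile scaling gave 332 higher and 84 lower in place of 575 and 32. Receptors called in T cells fell from 5 to 0 with no filter, and in cDC2s 1 was called in 1 fit of all libraries. The cause was not tested.

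Leaving out each library gave 4 to 4 receptors called in T cells, 0 to 0 in cDC2s, 0 to 3 for the interaction (0 without Cd47ΔT T cell library 1) and 5 to 9 between control cell types (5 without Cd47f/f T cell library 1). Over all genes, T cell calls (1167) became 15 with no filter, 758 at 5 TPM in place of 1 TPM, and 738 to 1890 without a library (738 and 744 without Cd47ΔT library 1 or 2, 1890 without Cd47f/f library 2). Calls in cDC2s (76) became 6 with no filter, 12 without a variance trend, 171 in 1 fit of all libraries and 0 to 15 without any library. Interaction calls (607) became 395 at 5 TPM and 214 to 613 without a library, and control calls (7763) 4878 to 7684. No call turned its sign. Among the values for single genes and over all genes, 749 were counted as unchanged, 85 lost a call, 6 gained a call and 22 counts moved. Unchanged means the same side of the threshold or, for counts over all genes, within a set fold of the main count. Values that were not called count as unchanged even where their sign turned, as for Cd27 in T cells.

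The replicate block gave 5, 0, 2 and 8 receptors called in T cells, cDC2s, the interaction and the control comparison. It took the calls of Ltbr in the interaction (adjusted p = 0.0775) and of Tnfrsf1a between control cell types (0.0547), and added that of Tnfrsf4 there (0.00129). Over all genes it moved calls in T cells to 2296 and in cDC2s to 4. Same-numbered libraries correlated at 0.19 in T cells and at -0.0438, 0.0591 and 0.119 in cDC2s. With 2 T cell libraries per genotype, both same-numbered pairs give the same value by construction, so it cannot settle whether the numbers are pairs. The numbers were not taken as pairs in the main fits.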
